A study of Mus musculus with 6 samples.

Results

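Glycolysis and gluconeogenesis are described here through 30 listed genes that take up, trap, split, oxidise or remake hexose sugars, in the colon of mice with colitis. A gene was represented by probe sets that the platform annotation names for it alone, and among these by the probe set with the highest mean over the 6 arrays. Single-gene probe sets were listed for 28 of the 30 genes, out of 18194 genes so named on the array, and 25 of them were above a log2 value of 4 on at least 3 arrays and were tested among 10491 genes. Hk3, Eno2 and Slc16a3 lay under that filter and are given as values with no test, and Gpi1 and Eno1 are not analysed here.

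The deficient group was 3 C57BL/6 mice of genotype PPAR g fl/fl with Lysozyme M cre+, and the control group was 3 Cre-negative littermates with the same floxed alleles. All 6 mice, aged 6 to 8 weeks, drank 2.5% dextran sodium sulfate (DSS), which injures the colonic epithelium, and were killed on day 7, so no group without DSS was measured. Lysozyme M is made chiefly by macrophages, monocytes and neutrophils, and Cre was targeted to its promoter, so only the deficient mice carried Cre. Total RNA of whole colon from 1 mouse was hybridised to each Affymetrix array. In such bulk RNA, fewer cells of a type and less RNA per cell cannot be told apart. Every value is a log2 expression level, and every difference is deficient minus control on that scale.

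Glycolysis splits glucose to pyruvate. Pyruvate is then reduced to lactate or enters mitochondria through pyruvate dehydrogenase, which the pyruvate dehydrogenase kinases (Pdk genes) shut off. Activated macrophages and neutrophils rely on glycolysis, and the transcription factor HIF-1, whose oxygen-regulated subunit is encoded by Hif1a, induces many of its genes. Colonocytes normally burn butyrate in mitochondria, while enterocytes of the small intestine also make glucose and handle fructose. PPAR gamma, the receptor deleted here, is a nuclear receptor of fat storage, and Pck1 and Pdk4 are among the genes that PPAR receptors are known to induce in fat and other tissues.

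All samples are labelled colon, but deficient replicate 3 and control replicate 1 carried genes of the small intestine. Apoa1, an apolipoprotein of enterocytes, stood at 15.23 and 15.46 on these 2 arrays, at 7.38 and 4.72 on deficient replicates 1 and 2, and at 3.85 and 3.82 on control replicates 2 and 3. Fabp6, the ileal bile acid binding protein, showed the same split, and Car1, a carbonic anhydrase of colonocytes, read 7.02 and 2.83 there but 13.60 to 15.32 on the other 4. Each genotype held 1 such array, so differences are also given among the other 4 (the 4 arrays alone) and between these 2 (the pair of small intestine profile). Pparg itself read 8.77, 8.23 and 4.15 in deficient samples, against 5.28, 9.91 and 9.54 in control samples and was lower on this pair than on the other 4 arrays. Most cell types of the colon do not express Lysozyme M and keep the receptor. Control replicate 2 alone expressed Xist (12.11, with the other 5 at the floor of the arrays), the RNA of the inactive X chromosome, and Pgk1 and Pdha1 on that chromosome are also given without this array.

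The 5 tested genes whose deficient and control arrays did not overlap are shown by their promoter windows, since HIF-1 binds a short core sequence that occurs near many glycolytic genes. The windows run from 250 bases before to 50 after the annotated start, 5′ to 3′ in the direction of transcription, from RefSeq on GRCm38.p6. Capitals mark ACGTG or GCGTG on either strand. The genes are Hk2 (chr6:82774405-82774704, minus strand), Tpi1 (chr6:124814109-124814408, minus strand), Pgam1 (chr19:41911621-41911920, plus strand), Pck1 (chr2:173152823-173153122, plus strand) and Hif1a (chr12:73907617-73907916, plus strand).
Hk2: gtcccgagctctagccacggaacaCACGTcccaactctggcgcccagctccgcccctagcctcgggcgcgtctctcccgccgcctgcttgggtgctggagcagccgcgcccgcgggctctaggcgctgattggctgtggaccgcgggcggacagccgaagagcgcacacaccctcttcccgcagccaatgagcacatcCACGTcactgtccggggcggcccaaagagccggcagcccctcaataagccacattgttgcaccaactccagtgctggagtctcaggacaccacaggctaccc
Tpi1: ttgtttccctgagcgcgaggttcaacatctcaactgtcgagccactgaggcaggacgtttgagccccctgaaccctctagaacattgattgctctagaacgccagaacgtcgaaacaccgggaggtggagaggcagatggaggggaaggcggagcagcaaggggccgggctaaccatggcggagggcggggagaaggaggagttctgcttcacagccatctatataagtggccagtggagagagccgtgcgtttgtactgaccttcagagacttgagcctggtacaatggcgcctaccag
Pgam1: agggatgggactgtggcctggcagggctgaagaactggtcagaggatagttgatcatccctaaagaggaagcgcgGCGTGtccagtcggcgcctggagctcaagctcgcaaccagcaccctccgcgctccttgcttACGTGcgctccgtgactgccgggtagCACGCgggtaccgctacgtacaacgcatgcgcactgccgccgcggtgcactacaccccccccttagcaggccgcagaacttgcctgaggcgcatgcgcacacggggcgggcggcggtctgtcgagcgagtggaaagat
Pck1: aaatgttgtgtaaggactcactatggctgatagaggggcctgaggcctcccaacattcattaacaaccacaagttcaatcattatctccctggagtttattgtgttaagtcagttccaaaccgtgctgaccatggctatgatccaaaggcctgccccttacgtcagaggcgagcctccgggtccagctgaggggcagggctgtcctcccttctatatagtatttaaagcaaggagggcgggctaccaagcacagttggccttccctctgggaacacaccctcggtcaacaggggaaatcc
Hif1a: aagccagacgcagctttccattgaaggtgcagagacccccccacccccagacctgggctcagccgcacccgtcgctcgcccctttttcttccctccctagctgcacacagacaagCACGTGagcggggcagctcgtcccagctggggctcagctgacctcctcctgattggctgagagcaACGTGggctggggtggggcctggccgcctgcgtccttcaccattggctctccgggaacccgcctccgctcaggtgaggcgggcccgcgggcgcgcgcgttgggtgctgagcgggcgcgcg

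The Hk2 window held 2 cores, which began 226 and 52 bases before the start. Pgam1 had 3, at 175, 114 and 88 bases before the start. Hif1a had 3 matches, of which 2 overlap within one CACGTG (an E-box, the site of other factors too) and the other began 70 bases before the start. No match lay in the Tpi1 and Pck1 windows. Across the list, 25 of 30 genes (83.3%) held a core in at least 1 window, against 12628 of 27025 genes (46.7%) in the whole table. Among genes tested on the arrays the shares were 22 of 25 (88.0%) and 5796 of 8501 (68.2%). A gene with several annotated starts has several windows and so more chances of a match, and these shares were not matched for that number. The core is short and rich in CpG, and a match is a description of the letters, not a site. A direct repeat that PPAR receptors bind, 2 copies of AGGTCA in one direction with 1 base between them, was on either strand in no member's window and in 13 of 32851 windows in the table. An exact match is so rare that a list of this size would be likely to hold none. Its absence therefore says nothing about PPAR sites, and bases outside the windows were not searched.

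The genes of the list did not shift as a body in these values, and the larger differences in mean were those of a few genes, none of which passed adjustment. Of the 25 tested genes 14 were higher and 11 lower in deficient colon, with a median difference of 0.04, while 5986 of 10491 genes (57.1%) were higher, with a median of 0.06. With limma and Benjamini-Hochberg adjustment over all genes, 0 of the 25 and 0 of 10491 passed an adjusted p under 0.05 (0% of genes), and the smallest adjusted p in the list was 0.659. Before adjustment, a limma p under 0.05 was reached by 3 higher members (Hif1a, Hk2 and Pfkfb3) and 1 lower member (Pck1), which is 16.0% of the 25 against 7.46% of all genes. By direction, the backgrounds were 5.10% of genes higher and 2.36% lower. Groups did not overlap for 4 higher members (Hif1a, Hk2, Pgam1 and Tpi1), where 9.36% of all genes were separated that way, and for 1 lower member (Pck1), where 4.15% were (20.0% and 13.5% in either direction). With a block for the pair of small intestine profile, 9 of the 25 had a limma p under 0.05 before adjustment, against 13.4% of all genes.

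**Figure D1:**
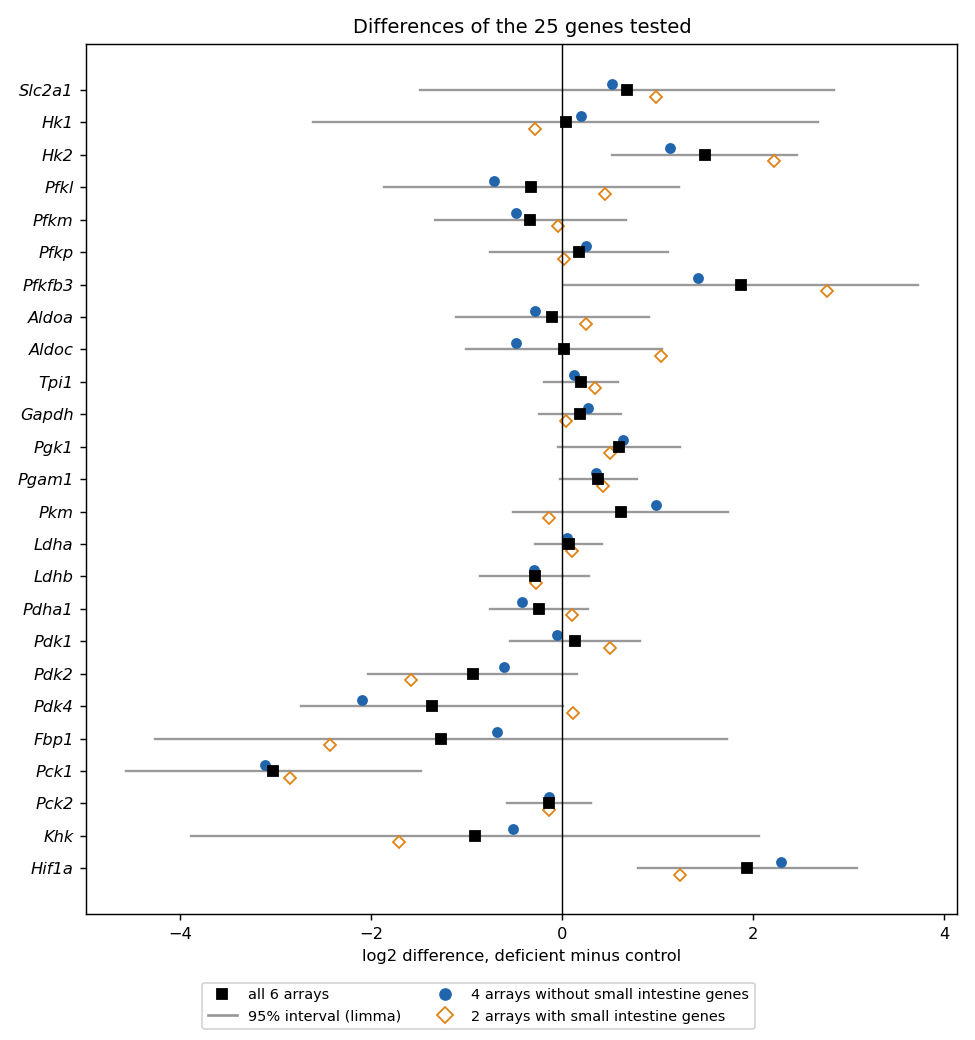
Log2 differences (deficient minus control) of the 25 genes tested, in pathway order. Squares are the difference over all 6 arrays with its 95% limma interval as a grey line, circles the difference among the 4 arrays without small intestine genes, and open diamonds the difference between the 2 arrays with them. The intervals of Hk2, Hif1a, Pfkfb3 and Pck1 do not reach 0, and for these 4 genes all 3 estimates lie on one side.

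Hif1a, which encodes the oxygen-regulated subunit of HIF-1, was higher on every deficient array. Its brightest probe set (1427418_a_at) read 10.72, 11.82 and 10.11 in deficient samples, against 8.88, 8.64 and 9.32 in control samples. The groups did not overlap, and deficient replicate 2 was the highest. The means were 10.89 ± 0.87 and 8.95 ± 0.34 (SD, n = 3 each), differing by 1.94 (SE, the standard error of a difference, 0.47; limma adjusted p 0.659). A second probe set (1416035_at) read 7.88, 8.87 and 7.21 in deficient samples, against 6.08, 4.57 and 5.79 in control samples, a difference of 2.51. For the brightest probe set the 4 arrays alone gave 2.29 and the 2 of small intestine profile 1.23. It ranged from 1.47, without deficient replicate 2, to 2.32, without deficient replicate 3.

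Glucose enters cells through carriers such as GLUT1, encoded by Slc2a1, and is trapped by hexokinases. Hk2, the inducible hexokinase that binds mitochondria, read 11.24, 11.19 and 10.999 in deficient samples, against 8.78, 10.04 and 10.14 in control samples (1422612_at). The deficient arrays lay close together and above all controls, of which the array with small intestine genes was the lowest. Means were 11.14 ± 0.13 and 9.65 ± 0.76 (SD, n = 3 each), differing by 1.49 (SE 0.39, limma adjusted p 0.659). It was 1.12 among the 4 arrays, 2.22 between the 2, and 1.05 without control replicate 1. Hk1, the hexokinase present in most tissues, gave a difference of 0.04 with an interval from -2.60 to 2.68. Its levels were split, at 7.15 and 7.43 on the pair of small intestine profile and from 9.83 to 10.11 elsewhere. Slc2a1 read 11.17, 11.92 and 9.61 in deficient samples, against 8.63, 10.86 and 11.18 in control samples. The groups overlapped, and the difference of 0.68 (SE 0.88, limma adjusted p 0.873) was 0.52 among the 4 arrays and 0.98 between the 2 with small intestine genes. It turned to -0.12 without control replicate 1. Hk3, a hexokinase of myeloid cells, lay near the filter on its brightest probe set (1442798_x_at, a design prone to cross-hybridisation), at 4.21, 5.23 and 3.9 in deficient samples, against 3.77, 3.43 and 3.73 in control samples.

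**Figure D2:**
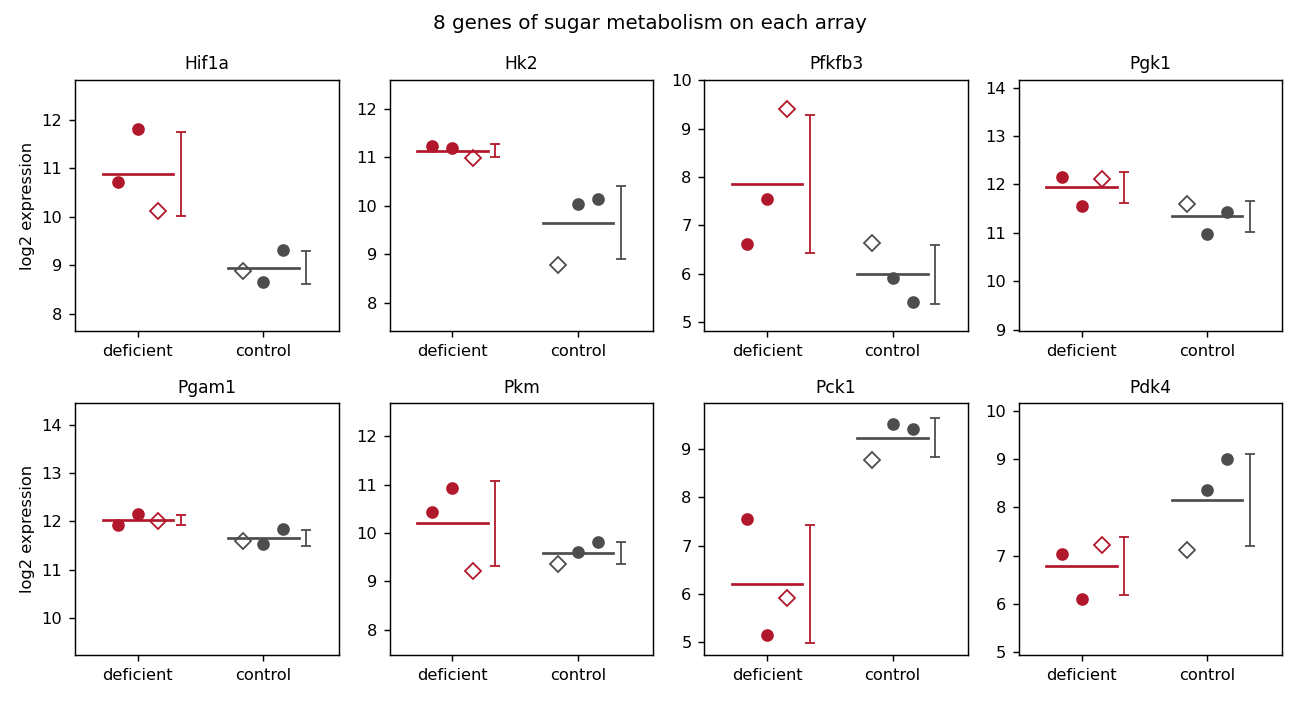
Log2 expression of 8 genes on each array, deficient (red) left of control (grey). Open diamonds are the 2 arrays with small intestine genes, horizontal lines are group means, bars at the side are ± 1 SD (n = 3), and every panel spans the same number of log2 units. The deficient arrays stand above all controls for Hif1a, Hk2 and Pgam1 and below them for Pck1, while the groups overlap for Pfkfb3, Pgk1, Pkm and Pdk4.

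In upper glycolysis no gene passed the adjusted threshold, and Pfkfb3 had the smallest p. Pfkfb3 makes fructose 2,6-bisphosphate, the activator of phosphofructokinase. It read 6.62, 7.55 and 9.41 in deficient samples, against 6.64, 5.91 and 5.42 in control samples (1416432_at). The lowest deficient array and the highest control array were nearly equal, and deficient replicate 3 was far above the rest. Means were 7.86 ± 1.42 and 5.99 ± 0.61 (SD, n = 3 each), differing by 1.87 (SE 0.75, limma p 0.0484, adjusted 0.668). Without deficient replicate 3 it was 1.09, on the 4 arrays alone 1.42, and between the other pair 2.77. The 3 subunits of phosphofructokinase itself, which commits sugar to glycolysis, had differences of -0.32 for Pfkl (liver type), -0.34 for Pfkm (muscle type) and 0.18 for Pfkp (platelet type). Groups overlapped for each of them. Pfkl turned to 0.12 without control replicate 2. Both Pfkl and Pfkm were lower on the 2 arrays with small intestine genes than on the other 4, and Pfkp was higher there, at 11.01 and 10.99 against 9.99 to 10.40.

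The aldolases split the hexose bisphosphate, and triosephosphate isomerase, encoded by Tpi1, interconverts the products. Aldoa, the form of muscle and most tissues, differed by -0.10 with an interval from -1.12 to 0.91, and its 5 kept probe sets ran from -0.21 to 0.11. Aldoc, the brain form, differed by 0.02, but by -0.48 on the 4 arrays alone and by 1.04 between the other pair. Tpi1 read 12.25, 12.39 and 12.59 in deficient samples, against 12.25, 12.22 and 12.17 in control samples (1452927_x_at). Its groups were just apart, the lowest deficient array lying level with the highest control to 2 decimals, and they differed by 0.20 (SE 0.16, limma adjusted p 0.787). The other kept Tpi1 probe sets gave 0.09 (1415918_a_at) and 0.39 (1435659_a_at). Groups overlapped on the first, where deficient replicate 2 was the lowest array at 11.76, and did not overlap on the second.

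All 4 tested enzymes of lower glycolysis were higher in mean, by less than 1 log2 unit each. Pgk1, phosphoglycerate kinase, the first step that yields ATP, read 12.15, 11.56 and 12.11 in deficient samples, against 11.61, 10.99 and 11.43 in control samples (1417864_at). On this probe set the groups overlapped by a narrow margin, and control replicate 2, the array with Xist, was the lowest. It differed by 0.60 (SE 0.26, limma adjusted p 0.679), and by 0.42 without control replicate 2. It was 0.64 among the 4 arrays and 0.50 between the 2 with small intestine genes. The other kept Pgk1 probe sets (1438640_x_at and 1439435_x_at) gave 0.60 and 0.52. On both of these the groups did not overlap, and control replicate 1 was the lowest array. Pgam1, phosphoglycerate mutase, read 11.93, 12.14 and 12.01 in deficient samples, against 11.59, 11.53 and 11.84 in control samples. Its groups did not overlap, and differed by 0.38 (SE 0.16, limma adjusted p 0.682), by 0.35 among the 4 arrays and by 0.43 between the other 2. Pkm, the pyruvate kinase of most tissues outside liver, differed by 0.61 (SE 0.46, limma adjusted p 0.776). This value depended on the array, at 0.24 without deficient replicate 2 and 1.10 without deficient replicate 3, and at -0.13 between the 2 arrays of small intestine profile. Gapdh, the glyceraldehyde phosphate dehydrogenase often used as a loading reference, was measured here by 3 Affymetrix control probe sets, which gave 0.18 to 0.20. Eno2, the neuronal enolase, was below the filter, at 3.94, 5.23 and 3.02 in deficient samples, against 2.32, 3.49 and 3.87 in control samples.

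Ldha and Ldhb, the lactate genes tested, differed little on their brightest probe sets. Ldha, the lactate dehydrogenase subunit that favours lactate formation, read 13.00, 13.18 and 13.13 in deficient samples, against 13.02, 13.08 and 13.00 in control samples. The difference of 0.07 had an interval from -0.28 to 0.42, among the narrowest in the list. Ldhb, the heart-type subunit, differed by -0.29 (limma adjusted p 0.787), and its 4 kept probe sets by -0.52 to -0.06, all lower. Slc16a3, the lactate exporter MCT4, was near the floor of the arrays, at 2.57, 2.91 and 3.18 in deficient samples and at 2.57 on all 3 control arrays.

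Of the kinases that keep pyruvate out of mitochondria, none passed the adjusted threshold, and the groups overlapped for each of the 3 tested. Pdk4, the kinase isoform induced by fasting and by PPAR receptors, read 7.04, 6.11 and 7.22 in deficient samples, against 7.11, 8.36 and 8.99 in control samples (1417273_at). The groups overlapped through control replicate 1, the control array with small intestine genes, which was as low as the deficient arrays. Means were 6.79 ± 0.60 and 8.15 ± 0.96 (SD, n = 3 each), differing by -1.36 (SE 0.55, limma p 0.0505, adjusted 0.668). The 4 arrays alone gave -2.10, and the other pair 0.11. Pdk2, a kinase isoform found in most tissues, read 4.19, 4.29 and 4.68 in deficient samples, against 6.26, 4.63 and 5.07 in control samples. Its difference of -0.94 (limma adjusted p 0.695) was -0.47 without control replicate 1. Pdk1, a kinase isoform that HIF-1 is known to induce, differed by 0.13, and its 3 kept probe sets disagreed in sign, from -0.37 to 0.13. Pdha1, a catalytic subunit of pyruvate dehydrogenase itself, differed by -0.25 (interval -0.76 to 0.27) and by -0.08 without control replicate 2, and its other probe set by 0.10.

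Gluconeogenic genes were lower in mean, and Pck1 stood out. Pck1 encodes the cytosolic phosphoenolpyruvate carboxykinase, which starts glucose synthesis in liver, kidney and small intestine and supplies glycerol for fat storage in adipocytes. It read 7.55, 5.16 and 5.92 in deficient samples, against 8.77, 9.52 and 9.40 in control samples (1423439_at). Every deficient array lay below every control array, with or without small intestine genes. Means were 6.21 ± 1.22 and 9.23 ± 0.40 (SD, n = 3 each), differing by -3.02 (SE 0.63, limma p 0.00316, adjusted 0.659). The 4 arrays alone gave -3.11 and the other pair -2.85, and the difference ranged from -3.69 to -2.50 with 1 array left out. A dimmer Pck1 probe set (1439617_s_at) differed by -1.24, with 2 deficient arrays and 1 control array under log2 4. Pck2, the mitochondrial form, differed by -0.14 with an interval from -0.58 to 0.30. Fbp1, fructose bisphosphatase of liver and gut, read 3.98, 3.21 and 5.64 in deficient samples, against 8.06, 4.56 and 4.0 in control samples. Its difference of -1.27 (SE 1.22, limma adjusted p 0.818) came down to -0.0034 without control replicate 1. Khk, which phosphorylates fructose, read 6.00, 5.58 and 8.18 in deficient samples, against 9.88, 6.03 and 6.58 in control samples. Its difference of -0.91 (SE 1.21) turned to 0.28 without control replicate 1.

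On the 2 arrays with small intestine genes, 6 of the 25 tested genes lay below all other arrays (Slc2a1, Hk1, Pfkl, Pfkm, Aldoa and Pkm), where 21.0% of all genes did. Another 3 lay above (Pfkp, Fbp1 and Khk), where 13.9% did. Together these 9 are 36.0% of the members, against 34.9% of all genes, so the share is near the background. Khk averaged 9.03 on these 2 arrays and 6.05 on the other 4, and Fbp1 6.85 and 3.94. The deficient minus control difference had the same sign among the 4 arrays as between the 2 for 17 of 25 members (68.0%), against 56.8% of all genes. In a limma fit with that profile as a block, 9 of 25 members (36.0%) had an unadjusted p under 0.05 against 13.4% of all genes, and 0 passed an adjusted p under 0.05, as did 0% of all genes. These were Hif1a, Hk2, Pfkfb3, Pgk1 and Slc2a1, all higher, and Pck1, Pdk2, Fbp1 and Khk, all lower. The smallest adjusted p of a member in that fit was 0.273.

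**Figure D3:**
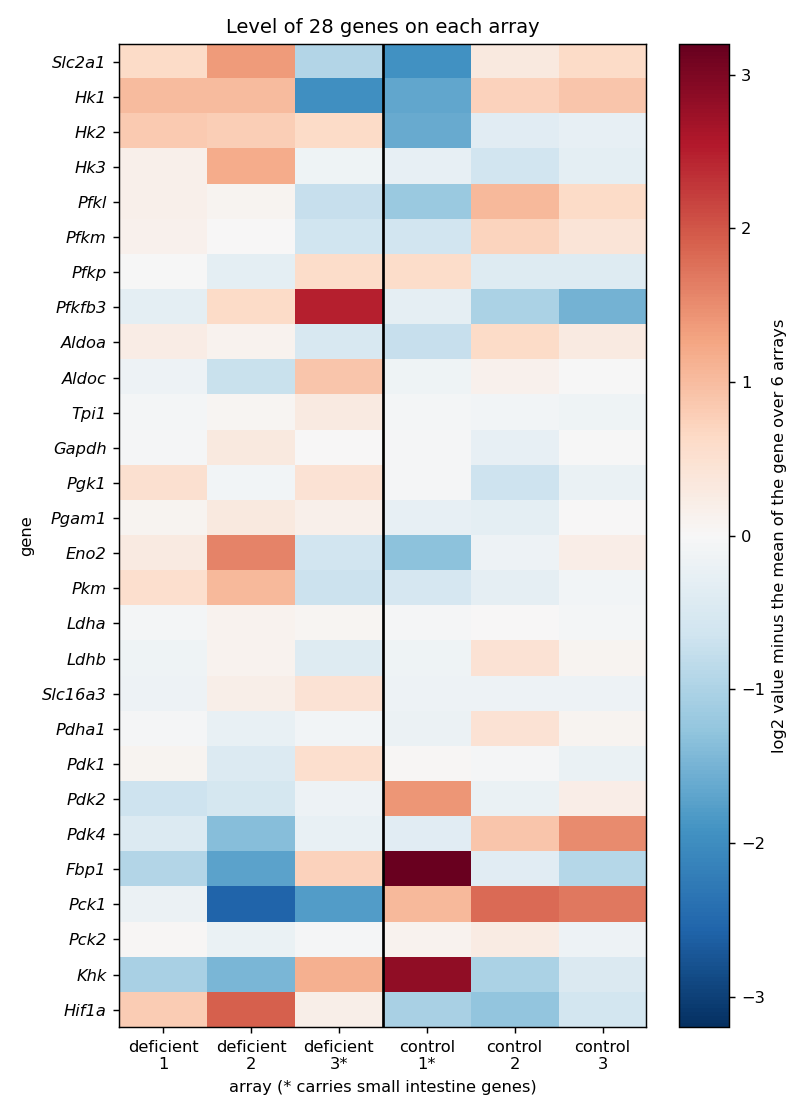
Level of each of the 28 measured genes on each array (columns, deficient left of control), as the log2 value minus that gene's mean over the 6 arrays. Asterisks mark the 2 arrays with small intestine genes, where Hk1, Pfkl, Pfkm and Aldoa are low and Fbp1 and Khk high. Hif1a is above its mean on the 3 deficient arrays and Pck1 on the 3 control arrays.

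Markers of other cells differed beside these genes. All 5 tested adipocyte markers (of 8 listed) were lower in deficient colon, with a median difference of -1.74. Their mean level, over the 6 named on the array, was 6.90 to 7.86 on deficient and 8.41 to 9.67 on control arrays. Pck1, itself a gene of fat cells, was lower on the same arrays. Among deficient arrays, replicate 3 had the highest marker level (7.86) with Pck1 at 5.92. Deficient replicate 1 had a marker level of 7.55 and the highest Pck1 of its group, also 7.55. Adipoq, the adipocyte hormone adiponectin, read 8.75, 8.16 and 9.43 in deficient samples, against 10.15, 11.24 and 10.16 in control samples. The part of fat cells in the Pck1 and Pdk4 values was not tested. Of 17 tested macrophage and monocyte markers 15 were higher, with a median of 0.99. The mean level of the 18 named on the array was 8.29 to 9.18 on deficient and 7.77 to 8.28 on control arrays. One of the 2 lower markers is Lyz2, whose promoter carries Cre in the deficient mice and which differed by -4.29. The 3 tested neutrophil markers (of 12 listed) were all higher. Of these, Il1r2 passed the filter through the deficient arrays alone, at 3.28, 3.51 and 3.64 in control samples, so the filter favoured its direction. The mean level of the 10 neutrophil markers named on the array was 3.71 to 5.26 on deficient and 2.79 to 3.80 on control arrays. Hif1a was highest on deficient replicate 2, as were both lists. All 9 tested cell cycle markers were higher, with a median of 1.25 and mean levels of 8.99 to 9.63 on deficient and 7.55 to 8.64 on control arrays. The part of these cells in the Hif1a, Hk2 and Pfkfb3 values was not tested. The mean level of the 4 erythroid markers named on the array was 2.47 to 2.95, close to the floor. That of the 8 skeletal muscle markers was 3.54 to 3.89, with dim genes included. The 2 tested ones, Ckm and Acta1, were brighter and differed by -0.82 and -0.16, with overlapping groups. Smooth muscle and enteric neuron and glia markers had medians of -0.02 and -0.0061. All 5 tested colonocyte markers (of 10 listed) were higher, with a median of 1.33. Over the 9 named on the array, dim untested ones included, the mean level was 5.28 to 8.02 on deficient and 4.46 to 7.31 on control arrays. Car1, at 0.55, was -1.26 on the 4 arrays alone, and Slc26a3, at 0.43, was -0.73 between the pair of small intestine profile. Car4, Aqp8 and Hoxa10 were higher in both comparisons. Of 6 tested small intestine enterocyte markers (of 10 listed) 5 were lower, with a median of -1.03. Over the 8 named on the array, the mean level was 4.61 to 9.83 on deficient and 5.72 to 11.72 on control arrays. The part of these epithelial cells in the members' values was not tested.

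**Figure D4:**
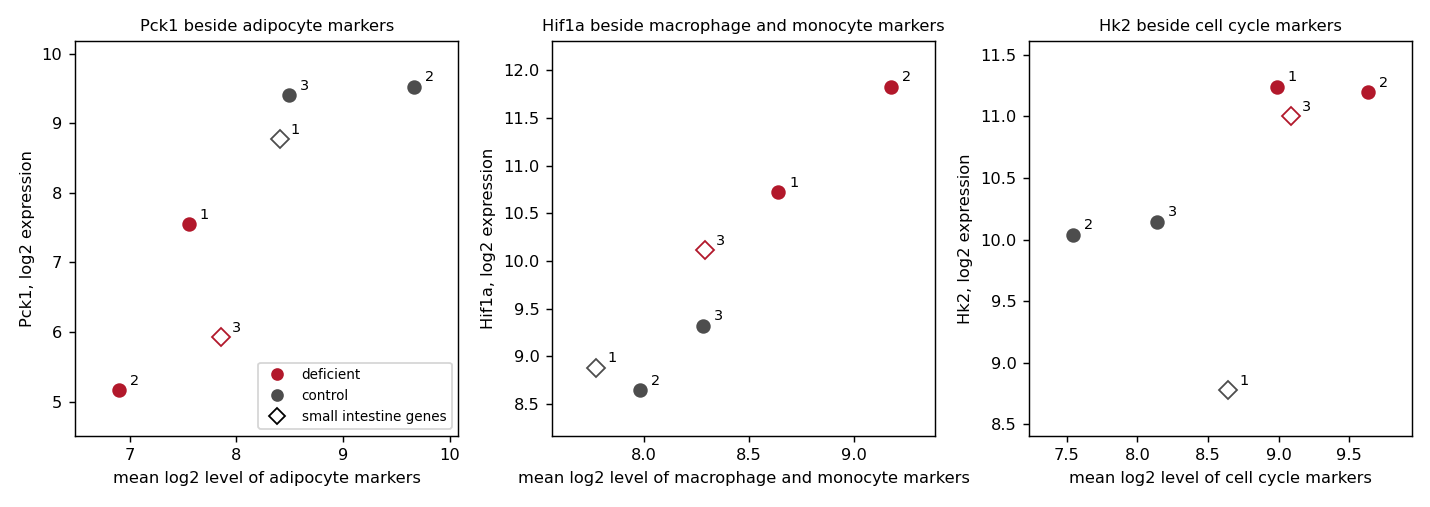
Log2 expression of Pck1, Hif1a and Hk2 (vertical axes) against the mean log2 level of adipocyte, macrophage and monocyte, and cell cycle markers (horizontal axes), 1 point per array with its replicate number. Red is deficient, grey control, and open diamonds are the 2 arrays with small intestine genes. Deficient arrays lie to the left of controls for adipocyte markers and to the right for the other lists.

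No gene of the neighbouring pathways passed the adjusted threshold. Among 22 other tested genes of glycolysis, gluconeogenesis and pyruvate use, 9 were higher and 13 lower, with a median of -0.08, and 1 higher and 2 lower had groups that did not overlap, against 9.36% and 4.15% of all genes. The smallest p values were those of Mpc1, a subunit of the mitochondrial pyruvate carrier, at -0.48, Pgm1, a phosphoglucomutase, at -0.83, and Pdhx, a component of pyruvate dehydrogenase, at 0.38 (limma adjusted p 0.667 to 0.703). Among 6 tested sugar and lactate carriers 2 were higher, and Slc2a4, the insulin-responsive carrier GLUT4 of fat and muscle, read 5.06, 3.65 and 5.0 in deficient samples, against 5.14, 5.64 and 5.51 in control samples. Its difference was -0.86, that of Bsg, the chaperone of lactate carriers, -0.34, and that of Slc2a8 -0.32. The 6 tested genes of the pentose phosphate pathway, which makes NADPH and ribose, were evenly divided. Pgd, its phosphogluconate dehydrogenase, read 12.23, 12.16 and 12.45 in deficient samples, against 11.84, 11.86 and 11.92 in control samples, a difference of 0.41 (limma adjusted p 0.667). Rpe differed by 0.28 and Rpia by -0.15.

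Other genes of the hypoxia response were split in direction. Of 19 tested genes 10 were higher and 9 lower, with a median of 0.03, and 3 higher and 1 lower gene had a limma p under 0.05 before adjustment, against 5.10% and 2.36% of all genes. Adm, the vasodilator peptide adrenomedullin, read 6.21, 7.32 and 8.05 in deficient samples, against 4.87, 3.65 and 4.94 in control samples. Its groups did not overlap, and they differed by 2.71 (SE 0.58, limma adjusted p 0.659). Car9, a carbonic anhydrase induced by HIF-1, read 9.08, 9.17 and 8.39 in deficient samples, against 8.03, 7.46 and 8.18 in control samples, a difference of 0.99. Mxi1, a repressor that opposes MYC, was lower by value on every deficient array, with a difference of -0.78. Vegfa, the angiogenic factor, differed by -0.0087 and Bnip3, a mitophagy receptor, by -0.11.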

How the data were processed

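Expression was measured on 6 Affymetrix mouse genome arrays, 1 per mouse. The deposited log2 values are one summary per probe set and array. Per the submitters' processing notes GCRMA was used (version not given in the sources used here). That they are log2 follows from their range, with a maximum of 16.2. The values share a floor, which compresses differences of dim genes. No further normalization was applied. Of 45101 probe sets, 34958 named 1 gene in the platform annotation, 932 several and 9211 none listed here, and 34754 probe sets had an Entrez identifier found in the reference gene table (GRCm38.p6). Probe sets above log2 4 on at least 3 arrays were kept, and the brightest kept probe set stood for a gene (10491 genes), Affymetrix control probe sets of Gapdh included. The groups were set against each other by limma (version 3.58.1, under R 4.3.3; moderated two-sided test without covariates), with Benjamini-Hochberg adjustment over all genes and a threshold of 0.05. Intervals are 95% limma intervals, and the number of arrays and the spread between them limit their precision. The procedure was tested on simulated data, drawn with independent noise for each gene and array. Those data held no shared profile like that of the pair of small intestine profile, so its effect was not simulated.

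The members and lists were chosen with earlier results of these data known. Named genes were all members, the 3 genes of smallest p in each neighbouring pathway list, Pparg, Lyz2, Apoa1, Fabp6 and Car1. Adipoq, Xist, Vegfa, Bnip3, Ero1a, Dlat and Fbp2 were named after their values were seen. The alternatives tried were other filters, normalizations, probe set rules and variance models, a replicate block, a block for the pair of small intestine profile, and leaving out arrays.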

Additional observations from a re-analysis of the deposited data

How the results depend on the processing

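No gene and no member passed an adjusted p under 0.05 in the limma fit or in any alternative run (threshold 0.1 also gave 0 with the reported setting). The smallest adjusted p over these was 0.0676 among all genes, with the mean of all probe sets, and 0.263 among members, without both arrays of small intestine profile. Members at an unadjusted limma p under 0.05 numbered 4, and 4 to 6 in the fits without 1 array. They numbered 9 with a block for the pair of small intestine profile and 7 without both of them. The share of all genes at that p was 7.46% in the reported fit and 13.4% with this block. It is not given for the other runs, so their counts have no background to be read against. Members higher ran from 12 to 17 and their median difference from -0.05 to 0.11 over all alternatives. Hif1a, Hk2, Pfkfb3, Pgk1, Pgam1, Tpi1, Pck1 and Pdk4 kept their direction in every alternative run. So did Pfkm, Gapdh, Pkm, Ldha, Ldhb, Pdk2, Pdha1, Fbp1 and Pck2 in every run that tested them. Some of these had small differences, such as Ldha at 0.07, so a kept direction does not mark the larger ones. Of the members that turned, Hk1 was -0.0031 and Aldoc -0.059 with quantile normalization, Pdk1 was -0.0658 with the mean of all probe sets, and without both arrays with small intestine genes Aldoc was -0.48 and Pdk1 -0.0533. The cause was not tested. With 1 array left out, Hk1 ran from -0.79 to 1.03, Slc2a1 from -0.12 to 1.32, Pfkl from -0.995 to 0.12, Pfkp from -0.0785 to 0.51, Aldoa from -0.50 to 0.17, Aldoc from -0.42 to 0.38, Pdk1 from -0.11 to 0.38 and Khk from -1.71 to 0.28. Pck1 was -2.13 with the mean of its probe sets. Deviations of same-numbered arrays from their group means correlated at -0.54, 0.36 and -0.61 over genes. Those of deficient replicate 3 and control replicate 1, the pair of small intestine profile, correlated at 0.69. That profile weighs on all these values, so they cannot tell whether the numbers pair the mice. The replicate block left 4 members at an unadjusted p under 0.05 and 0 genes called (smallest limma adjusted p 0.893). With 1 array left out, the group of 2 shares the spread that limma pools. The shared floor limits what can be said of Hk3, Eno2, Slc16a3 and Fbp1, and 3 arrays per group limit all of it.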

Other observations

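Further genes at the edges of the pathway had separate or nearly separate groups and were chosen after their values were seen. Ero1a, the oxidase that forms disulfide bonds in the endoplasmic reticulum and is induced by hypoxia, read 8.32, 8.42 and 8.43 in deficient samples, against 7.73, 7.08 and 8.16 in control samples, a difference of 0.73. Dlat, the acetyltransferase core of pyruvate dehydrogenase, read 8.86, 8.30 and 8.32 in deficient samples, against 7.65, 8.07 and 8.28 in control samples, a difference of 0.50. Fbp2, the muscle-type fructose bisphosphatase, read 10.55, 10.08 and 10.94 in deficient samples, against 11.78, 10.84 and 10.88 in control samples. Its difference of -0.64 had overlapping groups, and both fructose bisphosphatases were highest on control replicate 1.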
